A study of Mus musculus with 8 samples.

Results

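The genes described here are Il15 and 7 receptor chains: Il15ra, Il2rg, Il2ra, Il4ra, Il13ra1, Il7r and Il21r. They were listed by name, as a cytokine, its presenting receptor, the common gamma chain and chains related to it. All 8 were found among the 23420 features of the deposited count table, and all 8 passed the filter on low counts that left 12442 genes. Their read counts ran from 79 to 9813 per library.

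RNA was sequenced from mouse dendritic cells, the cells that present antigen to T cells. The 4 groups were wild type (WT) at steady state, Gata1 knock-out (KO) at steady state, WT with LPS and KO with LPS, with 2 libraries each. Gata1 encodes a transcription factor of red cell, platelet and mast cell precursors, and LPS is a component of the bacterial wall that toll-like receptor 4 detects. The design text calls the 2 libraries of a group biological replicates, without saying whether they came from separate animals or cultures, so p-values describe only how far these libraries differ. The allele, the strain or driver that deletes Gata1, the age of the mice, the tissue or culture that gave the cells, and the dose and duration of LPS are given in none of the sources used here.

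Dendritic cells and macrophages make IL-15. Inside the producing cell it is bound by IL-15 receptor alpha, the product of Il15ra, and the pair is shown at the cell surface to NK cells and memory CD8 T cells. The responding cell senses it with a beta chain (Il2rb) and the common gamma chain (Il2rg). The common gamma chain also serves the receptors for IL-2, IL-4, IL-7, IL-9 and IL-21, which each add chains of their own. The alpha chain for IL-4 can pair with IL-13 receptor alpha 1 instead, and the alpha chain for IL-7 can pair with the product of Crlf2 to sense TSLP. All of these receptors signal through Janus kinases and STAT factors.

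Expression is given in counts scaled to library size (CPM), first replicate 1 and then replicate 2 of a group. Changes are log2 ± SE, and a call means an adjusted p (Benjamini-Hochberg) under 0.05 in the quasi-likelihood test of edgeR across 12442 genes. Total counts ran from 8005151 to 15495249 per library. Gata1 had 0 reads in the 4 KO libraries, 1 and 10 reads in the unstimulated WT libraries, and 0 and 1 in those with LPS, so at this depth it hardly checks the genotype labels. Of 10 genes of the LPS response, 10 were called higher with LPS in WT and 7 in KO. Of all genes tested, 6.49% in WT and 11.8% in KO were called in either direction. The genes of that list not called in KO were Il6, Tnf and Il12b. Il6 and Tnf still rose there without overlap of the libraries, while the Il12b libraries overlapped. Within groups, log2 CPM had a median SD of 0.196 (WT) and 0.111 (KO) at steady state, against 0.463 and 0.355 with LPS. The T cell genes Cd3d, Cd3e and Cd3g never exceeded 3 reads, and a list of 12 T cell markers summed to between 9.04 and 36.3 CPM.

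Promoter windows of Il2ra, Il2rg and Il13ra1 are shown because these genes had the widest range between libraries, the rise with LPS and the fall in both genotypes, and because no annotated exon of GENCODE M21 reaches into them. Each is the 250 bases before the RefSeq start on GRCm38.p6, the assembly of mm10, written 5′ to 3′ on the strand of the gene. The windows lie at chr2:11642542-11642791 (plus strand), chrX:101268256-101268505 (minus strand) and chrX:36111858-36112107 (plus strand). Capitals mark matches to the motifs searched.
Il2ra: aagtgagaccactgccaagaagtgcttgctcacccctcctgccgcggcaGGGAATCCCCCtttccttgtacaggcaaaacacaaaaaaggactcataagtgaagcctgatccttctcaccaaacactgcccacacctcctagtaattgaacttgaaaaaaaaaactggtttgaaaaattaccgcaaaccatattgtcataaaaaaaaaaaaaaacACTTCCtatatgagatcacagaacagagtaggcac
Il2rg: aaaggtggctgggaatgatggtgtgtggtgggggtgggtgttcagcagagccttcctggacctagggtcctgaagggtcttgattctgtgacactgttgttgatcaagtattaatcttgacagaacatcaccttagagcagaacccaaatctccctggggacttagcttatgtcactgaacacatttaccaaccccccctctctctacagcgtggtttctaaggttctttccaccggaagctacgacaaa
Il13ra1: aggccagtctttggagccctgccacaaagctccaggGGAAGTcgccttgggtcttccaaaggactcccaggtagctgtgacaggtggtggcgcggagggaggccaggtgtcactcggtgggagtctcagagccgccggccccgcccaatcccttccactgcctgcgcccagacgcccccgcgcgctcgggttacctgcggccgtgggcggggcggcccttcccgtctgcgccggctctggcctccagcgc

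RefSeq promoter entries were matched for 7 of the 8 genes, all but Il15. On both strands, 6 motifs were searched: the NF-kB consensus, the interferon-response element (GAAA and GAAA parted by 2 bases), the STAT element GAS (TTCNNNGAA), its STAT6 form (TTC and GAA parted by 4 bases), the GATA site AGATAA and the Ets core GGAAGT. They occur in 7.25%, 2.98%, 7.02%, 5.85%, 9.99% and 19.7% of 32851 promoter windows of 250 bases. The Il2ra window holds 2 overlapping NF-kB matches, which start 201 and 200 bases before the gene, and an Ets core on the minus strand that starts 35 bases before it. The Il13ra1 window holds an Ets core 214 bases before the start. The Il7r window holds a GAS match 142 bases and an Ets core 49 bases before the RefSeq start. That window (chr15:9529877-9530126) lies inside the GENCODE span of Il7r, and 86 of its bases are in annotated exons. None of these letters was found in the windows of Il2rg, Il15ra, Il4ra and Il21r. Annotated exons cover 151 bases of the Il4ra window, and 3 and 117 bases of the Il15ra windows, so these are partly transcribed sequence. Matches of letters are a description and were not tested for binding.

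Il15 (mm10 chromosome 8, 82331632 to 82403222, minus strand), the cytokine gene, was at 45.3 and 49.2 CPM in WT and at 40.6 and 42.1 CPM in KO at steady state. With LPS it was at 58.5 and 72.4 CPM in WT and at 20.3 and 14.9 CPM in KO. The WT libraries with LPS were the highest of the 8, the KO libraries with LPS the lowest, and no groups overlapped. With LPS, Il15 was lower in KO than in WT by a log2 difference of -1.89 ± 0.25, a fold of 3.71 (edgeR adjusted p = 0.0366). It was the 1 gene of the 8 called in that comparison, where 0.772% of all genes tested were called, 0.490% lower in KO and 0.281% higher. In bulk RNA, fewer cells of a type and less RNA per cell cannot be told apart. The call was lost in a fit of the 4 LPS libraries alone (edgeR adjusted p = 0.357) and without any 1 of the 4 KO or the 2 WT steady-state libraries (0.0976 to 0.152), while the difference stayed between -2.14 and -1.71 over all 8 left-out libraries.

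In KO cells Il15 fell with LPS by a log2 change of -1.23 ± 0.25, a fold of 2.35 (edgeR adjusted p = 0.0255). In WT cells its change was 0.47 ± 0.24 (edgeR adjusted p = 0.260), with both LPS libraries above both steady-state libraries. The difference between these responses was -1.70 ± 0.35 (edgeR unadjusted p = 0.00155, adjusted p = 0.506, and DESeq2 adjusted p = 0.00962). At steady state KO and WT differed by -0.19 ± 0.24 (edgeR adjusted p = 1). This KO result was not called when leaving out KO steady-state replicate 1 or 2, WT steady-state replicate 1 or 2, or KO LPS replicate 2 (edgeR adjusted p = 0.0642 to 0.172).

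Markers of cell types also differed between the LPS groups. A list of 16 dendritic cell markers summed to 23985 to 35397 CPM at steady state, to between 17993 and 21470 CPM in WT with LPS, and to between 6237 and 11462 CPM in KO with LPS. Most of each sum came from Cd74 and the MHC class II genes of the list, Cd74 being with LPS at 6676 and 4178 CPM in WT and at 1835 and 4457 CPM in KO. The sums hide differences between the WT libraries with LPS, which went in both directions. Fscn1 was there at 236 and 3110 CPM, and Itgax at 645 and 214 CPM. Called lower in KO than in WT with LPS were 2 of the 16, Ccr7 and Cd86, against 0.490% of all genes tested, and 0 were called higher. In KO 7 of the 16 were called lower with LPS, among them the dendritic cell factor Zbtb46. In WT 2 were called lower and 1 higher. The lectin gene Cd209a of that list had 0 reads in 3 of the 4 LPS libraries. A list of 11 macrophage markers summed to 20909 to 28798 CPM at steady state, to between 4020 and 5864 CPM in WT with LPS and to between 16429 and 21958 CPM in KO with LPS. Lyz2 held the largest part of each sum, with LPS at 2256 and 2057 CPM in WT and at 16039 and 10001 CPM in KO. Of those 11, Apoe, a lipid carrier abundant in macrophages, was called higher in KO than in WT with LPS. For LPS against steady state, 6 of the 11 were called lower in WT and 5 in KO, and 0 higher. The shares of all genes called lower were 3.49% in WT and 6.46% in KO. Emr1 of that list, not called, went the other way, from 509 and 416 to 1509 and 843 CPM in WT. In KO Emr1 went from 642 and 992 to 1787 and 2751 CPM. Cd68 and Fcgr1, also not called, rose without overlap in KO. Cd68 went from 620 and 455 to 1145 and 1820 CPM there, and Fcgr1 from 85.4 and 124 to 270 and 199 CPM. In WT the steady-state and LPS libraries of Cd68 and of Fcgr1 overlapped. The part of these shifts in the values of Il15 and of the receptor chains was not tested.

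Il15ra (chromosome 2, 11705290 to 11734317, plus strand), whose product holds IL-15 for presentation, did not pass the test in any comparison. It was at 56.0 and 75.9 CPM in WT and at 54.9 and 59.8 CPM in KO at steady state. With LPS it was at 20.8 and 87.1 CPM in WT and at 26.5 and 15.2 CPM in KO. The WT libraries with LPS differed 4.2-fold, 1 being the highest of the 8 and the other lying between the KO libraries with LPS. KO against WT with LPS gave a log2 difference of -1.37 ± 0.61 (edgeR adjusted p = 0.316). It was 0.02 without WT LPS replicate 2 (edgeR adjusted p = 0.991) and -2.06 without WT LPS replicate 1 (0.0248), so single libraries set it.

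LPS in KO gave Il15ra a log2 change of -1.45 ± 0.62 (edgeR adjusted p = 0.149), with both LPS libraries below both steady-state libraries. That change was called by edgeR when WT LPS replicate 1 or 2 was left out (adjusted p = 0.0167 and 0.0170) and with the 4 KO libraries alone (0.0367). In WT the change was -0.28 ± 0.60 (edgeR adjusted p = 0.785), but 0.41 without WT LPS replicate 1 (0.608) and -1.67 without WT LPS replicate 2 (0.0254). In CPM per kilobase of exon, Il15 stood at 1.27 to 1.93 times the level of Il15ra in 7 libraries and at 5.54 times in WT LPS replicate 1. Without the division by length the ratio was 0.648 to 0.980 in those 7 and 2.82 in WT LPS replicate 1.

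**Figure D1:**
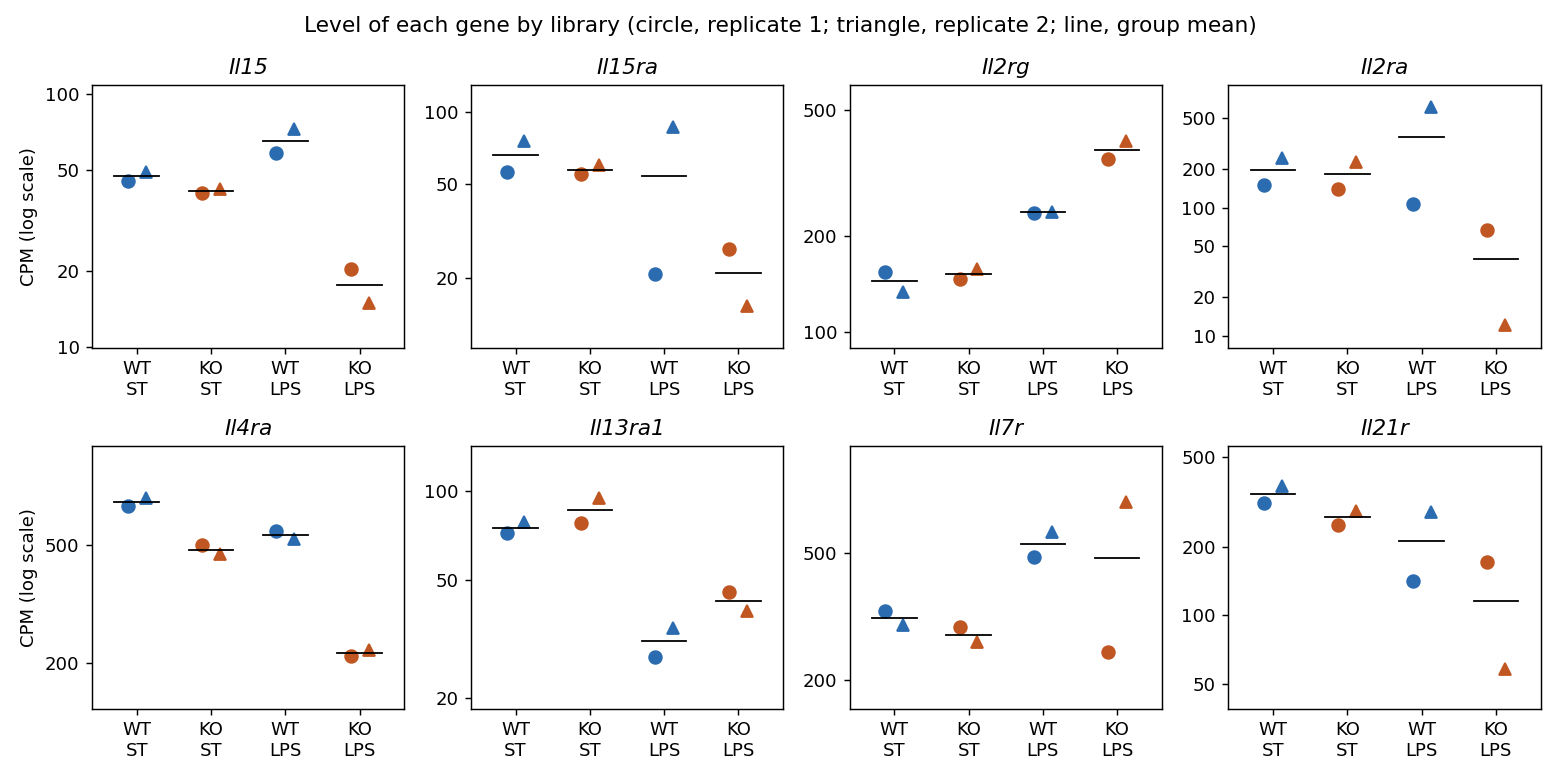
Level of each of the 8 genes in CPM (log axis) in each library, by group (ST is steady state). Circles are replicate 1, triangles replicate 2 and lines the group means. The Il15 libraries of a group lie close together, whereas those of Il2ra with LPS lie 5.69-fold apart in WT and 5.58-fold apart in KO.

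Il2rg (chromosome X, 101264378 to 101268255, minus strand), the common gamma chain, was the 1 gene of the 8 called higher in any comparison. It was at 155 and 134 CPM in WT and at 147 and 157 CPM in KO at steady state, and with LPS at 237 and 239 CPM in WT and at 351 and 399 CPM in KO. All LPS libraries lay above all steady-state libraries, and the KO libraries with LPS lay above the WT ones. In KO it rose with LPS by a log2 change of 1.30 ± 0.24, a fold of 2.46 (edgeR adjusted p = 0.0183), where 5.30% of all genes tested were called higher. In WT its change was 0.72 ± 0.23, a fold of 1.65 (edgeR adjusted p = 0.107, DESeq2 adjusted p = 0.0158).

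With LPS, KO and WT differed in Il2rg by a log2 difference of 0.66 ± 0.23 (edgeR adjusted p = 0.213, DESeq2 adjusted p = 0.0473). The difference between its responses was 0.58 ± 0.33 (edgeR adjusted p = 0.894), so the larger change in KO was not separated from that in WT. At steady state the genotypes differed by 0.08 ± 0.23 (edgeR adjusted p = 1). Its rise in KO was not called when leaving out KO steady-state replicate 1 (edgeR adjusted p = 0.171) or 2 (0.158) and without KO LPS replicate 2 (0.0959).

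Other receptor chains related to these genes were given from a list of 5. Il2rb, the beta chain of the IL-2 and IL-15 receptors, had at most 20 reads in a library, or 1.49 CPM. Il9r, the alpha chain for IL-9, had at most 13 reads, and Il13ra2, a decoy receptor for IL-13, had 2 reads in 1 library and 0 in the other 7. Csf2rb, the shared beta chain of the GM-CSF receptor, was at 1272 to 3209 CPM, and Crlf2, the TSLP receptor chain, at 37.8 to 93.7 CPM. Of these 5 chains 3 were tested, and 0 were called in any of the 5 comparisons.

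Il2ra (chromosome 2, 11642807 to 11693193, plus strand) encodes CD25, the alpha chain that raises the affinity of the IL-2 receptor and is also carried by some mature dendritic cells. It was at 151 and 244 CPM in WT and at 139 and 227 CPM in KO at steady state. With LPS it was at 107 and 607 CPM in WT and at 67.5 and 12.1 CPM in KO. The KO libraries with LPS were the lowest of the 8, yet libraries of a group with LPS differed 5.69-fold in WT and 5.58-fold in KO. KO against WT with LPS gave a log2 difference of -3.16 ± 1.0, a fold of 8.94 (edgeR adjusted p = 0.172), larger in size than that of the other 7 genes. It was called by DESeq2 (adjusted p = 0.00563), by edgeR with no filter (0.0373) and by edgeR without WT LPS replicate 1 (0.0406). Without WT LPS replicate 2 the difference was -1.41 (edgeR adjusted p = 0.350), without KO LPS replicate 2 it was -2.43 (0.415) and without KO LPS replicate 1 it was -4.89 (0.204).

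LPS gave Il2ra a log2 change of -2.19 ± 0.97 in KO (edgeR adjusted p = 0.162, DESeq2 adjusted p = 0.0467). In WT the change was 0.85 ± 0.93 (edgeR adjusted p = 0.577), turning to -0.89 without WT LPS replicate 2 (0.446) and 1.63 without WT LPS replicate 1 (0.314). The KO change was -3.92 without KO LPS replicate 1 (edgeR adjusted p = 0.0848) and -1.46 without KO LPS replicate 2 (0.497). The difference between the responses was -3.05 ± 1.33 (edgeR adjusted p = 0.793), from -4.78 without KO LPS replicate 1 to -1.30 when WT LPS replicate 2 was left out, and the steady-state difference was -0.11 ± 0.92 (edgeR adjusted p = 1).

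Il2ra and Il15ra are close on the chromosome, in the same orientation with 11977 bases and 1 RefSeq gene, Gm39759, between their RefSeq spans. Their log2 CPM correlated with a Pearson's r of 0.89 over the 8 libraries, which share 4 groups, so this is a description.

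Il4ra (chromosome 7, 125552120 to 125579474, plus strand), the chain that binds IL-4, had the closest replicates of the 8 genes with LPS apart from Il2rg in WT. It was at 673 and 716 CPM in WT and at 497 and 463 CPM in KO at steady state, and with LPS at 553 and 522 CPM in WT and at 211 and 220.3 CPM in KO. The KO libraries lay below the WT libraries under each treatment, and the LPS libraries below the steady-state libraries of their genotype. In KO it fell with LPS by a log2 change of -1.16 ± 0.25, a fold of 2.23 (edgeR adjusted p = 0.0296), where 6.46% of all genes tested were called lower. In WT the change was -0.37 ± 0.25 (edgeR adjusted p = 0.363). The KO call was lost without any 1 of the 4 KO or the 2 WT steady-state libraries (edgeR adjusted p = 0.0724 to 0.201).

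With LPS, Il4ra differed between KO and WT by a log2 difference of -1.32 ± 0.25, a fold of 2.5 (edgeR adjusted p = 0.0680). DESeq2 called it (adjusted p = 4.30e-08), as did edgeR with no filter (0.0468) and without WT LPS replicate 1 (0.0380). At steady state the difference was -0.53 ± 0.25 (edgeR unadjusted p = 0.0647, adjusted p = 1), the smallest unadjusted p of the 8 genes there. The difference between the responses was -0.79 ± 0.35 (edgeR adjusted p = 0.798).

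Il13ra1 (chromosome X, 36112110 to 36171259, plus strand), which pairs with the Il4ra product, was the 1 gene of the 8 called with LPS in both genotypes. It was at 72.3 and 78.5 CPM in WT and at 78.5 and 95.2 CPM in KO at steady state, and with LPS at 27.6 and 34.5 CPM in WT and at 45.6 and 39.5 CPM in KO. All LPS libraries lay below all steady-state libraries, and the KO libraries with LPS lay above the WT ones. It fell by a log2 change of -1.28 ± 0.23 in WT, a fold of 2.42 (edgeR adjusted p = 0.0248), where 6.49% of all genes tested were called and 3.49% were called lower. In KO it fell by a log2 change of -1.03 ± 0.23, a fold of 2.04 (edgeR adjusted p = 0.0347).

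Between KO and WT, Il13ra1 differed with LPS by a log2 difference of 0.45 ± 0.23 (edgeR adjusted p = 0.384), and at steady state 0.20 ± 0.23 (edgeR adjusted p = 1). The responses differed by 0.25 ± 0.33 (edgeR adjusted p = 1). The WT call was lost in a fit of the 4 WT libraries alone (edgeR adjusted p = 0.104) and without any 1 of the 4 steady-state libraries or WT LPS replicate 1 (0.0585 to 0.150). The KO call was lost without any 1 of the 4 KO or the 2 WT steady-state libraries (edgeR adjusted p = 0.0708 to 0.253).

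Il7r (chromosome 15, 9505788 to 9530176, minus strand), the alpha chain for IL-7 and TSLP, was at 329.9 and 297 CPM in WT and at 292 and 263 CPM in KO at steady state. With LPS it was at 484 and 579 CPM in WT and at 244 and 722 CPM in KO. The KO libraries with LPS were the lowest and the highest of the 8, whereas both WT libraries with LPS lay above every steady-state library. The log2 change with LPS was 0.76 ± 0.47 in WT (edgeR adjusted p = 0.333) and 0.80 ± 0.47 in KO (edgeR adjusted p = 0.271). Without KO LPS replicate 2 the KO change was -0.21 (edgeR adjusted p = 0.778), and without KO LPS replicate 1 it was 1.38 (0.0525). KO against WT with LPS gave -0.14 ± 0.47 (edgeR adjusted p = 0.925), moving to 0.44 when KO LPS replicate 1 was left out (0.549) and to -1.14 when replicate 2 was (0.258).

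Il21r (chromosome 7, 125603429 to 125633570, plus strand), the private chain for IL-21, lies next to Il4ra with 23777 bases and no RefSeq gene between them. It was at 313 and 373 CPM in WT and at 251 and 289.6 CPM in KO at steady state, and with LPS at 142 and 285 CPM in WT and at 172 and 58.2 CPM in KO. LPS libraries lay below the steady-state libraries of their genotype, and the LPS groups overlapped. The log2 change with LPS was -0.68 ± 0.53 in WT (edgeR adjusted p = 0.437) and -1.23 ± 0.54 in KO (edgeR adjusted p = 0.159). KO against WT gave -0.89 ± 0.53 with LPS (edgeR adjusted p = 0.462) and -0.34 ± 0.53 at steady state (edgeR adjusted p = 1). The difference with LPS was -1.88 without KO LPS replicate 1, -0.29 when WT LPS replicate 2 was left out and -0.33 when KO LPS replicate 2 was left out. The KO change was -2.22 without KO LPS replicate 1 and -0.67 without KO LPS replicate 2, and the WT change was -1.27 without WT LPS replicate 2 and -0.26 without WT LPS replicate 1, with edgeR adjusted p from 0.0558 to 0.858 over these left-out libraries.

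Counted over the 8 genes, 0 were called between genotypes at steady state, where 0.00% of all genes tested were called, 327 genes had an unadjusted edgeR p under 0.05 and DESeq2 called 27. The libraries did not overlap for 4 of the 8 there, all lower in KO (Il15, Il4ra, Il7r and Il21r), against 45.5% of all genes in either direction. With LPS, 5 of the 8 did not overlap between genotypes, Il15, Il2ra and Il4ra being lower and Il2rg and Il13ra1 higher in KO, against 36.1% of all genes in either direction. LPS in WT separated 6 of the 8, 3 in each direction, against 56.6% of all genes. LPS in KO separated 7 of the 8, with Il2rg higher and 6 lower, against 72.6% of all genes, and called 4 of the 8 against 11.8%.

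The median log2 change of the 8 genes was -1.11 for KO against WT with LPS and -1.19 for LPS in KO, beside medians of -0.01 and -0.02 over all genes tested. It was 0.09 for LPS in WT and -0.18 for KO against WT at steady state, beside 0.00 and -0.01. Both comparisons with the lowest medians share the KO libraries with LPS. For the difference between the LPS responses 0 of the 8 were called, as were 0 genes in all (0.00%), with 797 genes at an unadjusted edgeR p under 0.05 and 113 called by DESeq2. Il15 was among those 113.

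**Figure D2:**
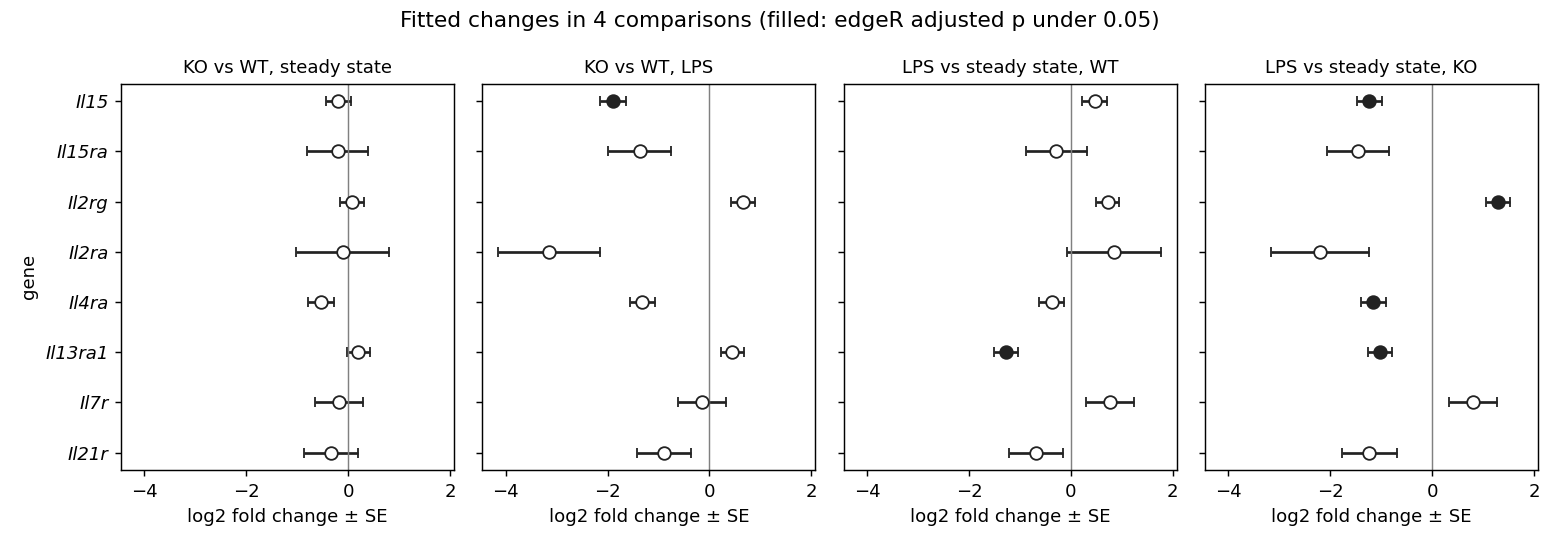
Log2 change of each of the 8 genes in the 4 pairwise comparisons, with bars of ± 1 SE from edgeR. Filled points have an adjusted p under 0.05. Il15 is filled at -1.89 for KO against WT with LPS, and Il2rg is the filled point above 0, at 1.30 for LPS in KO.

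Levels were set between genes per length, here as mean CPM per kilobase of exon, with all annotated exons of a gene joined. Which transcripts these cells use was not examined, so the order depends on that choice of length. At steady state in WT, Il4ra (116 ± 5.07 SD, n = 2) and Il21r (103 ± 12.8) stood highest and overlapped. Il7r (67.2 ± 4.97) and Il2rg (60.5 ± 6.27) came next and overlapped. Il2ra (34.6 ± 11.5) followed, then Il15 (20.9 ± 1.23) and Il13ra1 (20.3 ± 1.18), which overlapped, and Il15ra (14.8 ± 3.16) stood lowest. In KO the same pairs of neighbours led, Il21r (81.3 ± 8.20) with Il4ra (80.0 ± 3.97), then Il2rg (63.8 ± 3.01) with Il7r (59.5 ± 4.45). Il2ra (32.0 ± 10.9) overlapped Il13ra1 (23.4 ± 3.18), and Il15 (18.3 ± 0.497) and Il15ra (12.9 ± 0.774) were lowest.

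With LPS the order per kilobase differed. In WT it ran from Il7r (114 ± 14.4 SD, n = 2) to Il2rg (99.8 ± 0.523), Il4ra (89.6 ± 3.65), Il21r (64.2 ± 30.5), Il2ra (62.5 ± 62.0), Il15 (28.9 ± 4.36), Il15ra (12.1 ± 10.6) and Il13ra1 (8.37 ± 1.31). Among neighbours in that run, Il21r overlapped Il2ra, Il2ra overlapped Il15, and Il15ra overlapped Il13ra1. The Il2ra libraries, at 18.7 and 106, lay so far apart that their range also overlapped those of Il7r, Il2rg, Il4ra and Il15ra, so the place of Il2ra is not settled. In KO the common gamma chain led: Il2rg (157 ± 14.4), Il7r (104 ± 72.4), Il4ra (35.9 ± 1.14), Il21r (34.6 ± 24.2), Il13ra1 (11.5 ± 1.17), Il15 (7.78 ± 1.71), Il2ra (6.97 ± 6.87) and Il15ra (4.69 ± 1.81). There Il2rg overlapped Il7r, Il4ra overlapped Il21r, and Il2ra overlapped Il15, Il15ra and Il13ra1.

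**Figure D3:**
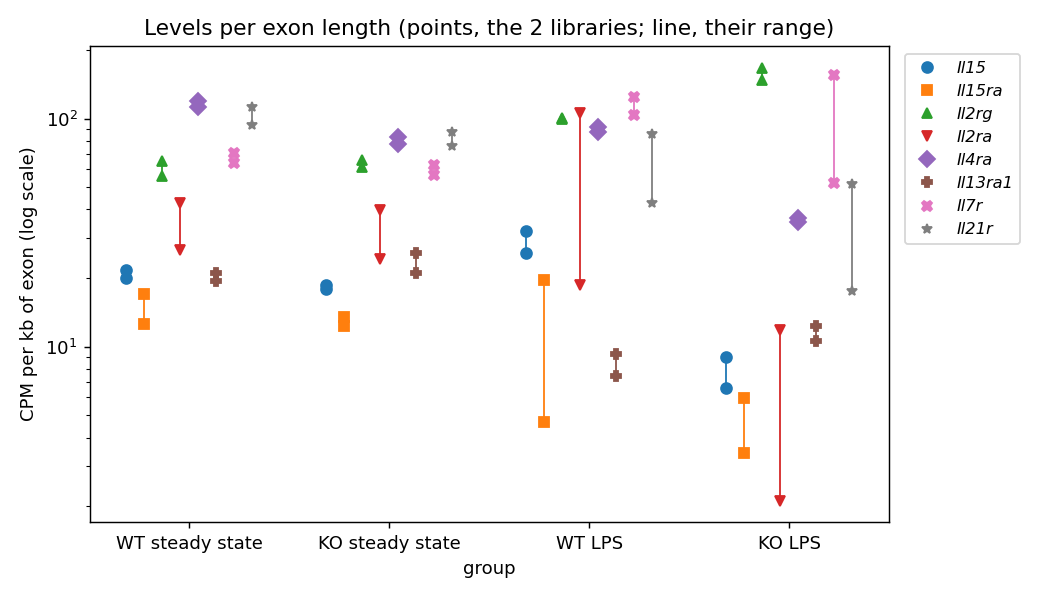
CPM per kilobase of exon (log axis) of the 8 genes in the 4 groups. Points are the 2 libraries and lines their range. In KO with LPS, Il2rg (mean 157) stands highest and Il15ra (mean 4.69) lowest.

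Other than Il15, the ligand genes of these receptors had few reads. Il9 and Il21 had 0 reads in all 8 libraries, Il4 at most 3 reads and Il2 at most 10. Il7 was at 0.397 to 2.80 CPM. Il13 had 29 and 20 reads in WT with LPS, and at most 2 in the other 6 libraries. A list of 9 mast cell and basophil markers, cells that can make IL-13, summed to 130 and 18.6 CPM in WT with LPS, to 1.24 and 3.67 CPM in KO with LPS, to 3.19 and 91.7 CPM in WT at steady state and to 2.48 and 1.24 CPM in KO at steady state. With LPS in WT the sum was nearly all Hdc (130 and 17.8 CPM), while WT steady-state replicate 2, where Il13 had 2 reads, held the mast cell and basophil protease genes Prss34 (55.9 CPM) and Cpa3 (16.7 CPM). The part of these cells in the Il13 reads was not tested. Of 7 ligand genes 2 were tested and 0 were called in any comparison.

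Of 9 genes of Janus kinases and STATs, 9 were tested and 0 were called in KO against WT under either treatment or with LPS in KO. With LPS in WT 2 were called higher, Stat5a and Stat5b, the STATs downstream of IL-2, IL-7 and IL-15. Stat5a went from 87.5 to 256 CPM (log2 change 1.55 ± 0.32, edgeR adjusted p = 0.0357) and Stat5b from 108 to 260.2 CPM (1.26 ± 0.28, edgeR adjusted p = 0.0437). With LPS, Stat5a was at 324 and 188 CPM in WT and at 56.7 and 77.8 CPM in KO, without overlap (log2 difference -1.93 ± 0.33, edgeR adjusted p = 0.0522). Jak2 had the largest mean of the list, 1386 CPM in WT and 1063 CPM in KO at steady state.

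Of 6 SOCS-type inhibitors, which dampen these receptors, Socs1 and Socs3 rose with LPS in both genotypes. The log2 change of Socs3 was 3.52 ± 0.30 in WT (edgeR adjusted p = 0.00372) and 3.47 ± 0.30 in KO (0.00297). That of Socs1 was 1.33 ± 0.29 in WT (edgeR adjusted p = 0.0431) and 2.07 ± 0.30 in KO (0.0102). Cish, a STAT5 target gene named after its values were seen, was at 241 and 86.4 CPM in WT with LPS and at 34.3 and 31.4 CPM in KO with LPS. Its difference was -2.31 ± 0.45 (edgeR adjusted p = 0.0705).

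Of 14 target genes of IL-4 and IL-13, 13 were tested. With LPS 1 was called lower in KO than in WT, the chemokine gene Ccl17, at 570.5 and 192 CPM in WT and at 37.2 and 25.3 CPM in KO (log2 difference -3.61 ± 0.54, edgeR adjusted p = 0.0412). LPS lowered the lectin receptor genes Mrc1 and Mgl2 and the lipoxygenase gene Alox15 in both genotypes, and Ccl17 in KO, while Tgm2 and Socs1 rose in both. The list therefore moved in both directions. Ccl22, with the largest mean of the list, was at 4056 and 11580.2 CPM in WT with LPS and at 1570.0 and 321 CPM in KO with LPS (edgeR adjusted p = 0.135).

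Of 9 genes of the interferon input that is known to induce Il15, 8 were tested and 0 were called between genotypes. Irf7, an interferon-induced factor, rose with LPS by a log2 change of 6.04 ± 0.59 in WT (edgeR adjusted p = 0.00454) and of 6.80 ± 0.61 in KO (0.00297), and the receptor chain Ifnar2 by 2.16 ± 0.40 in KO (0.0191). Irf1 of the same list, named after its values were seen, was at 267 and 326 CPM in WT and at 256 and 254 CPM in KO at steady state, and with LPS at 143 and 381 CPM in WT and at 189 and 90.3 CPM in KO. Its KO libraries with LPS lay below those at steady state, with a log2 change of -0.87 ± 0.51 (edgeR adjusted p = 0.271). Of 5 NF-kB subunits, 1 was called, Relb, which fell with LPS in KO by a log2 change of -1.63 ± 0.34 (edgeR adjusted p = 0.0282). KO against WT with LPS called 0 of the 5, whose median difference was -1.21.

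**Figure D4:**
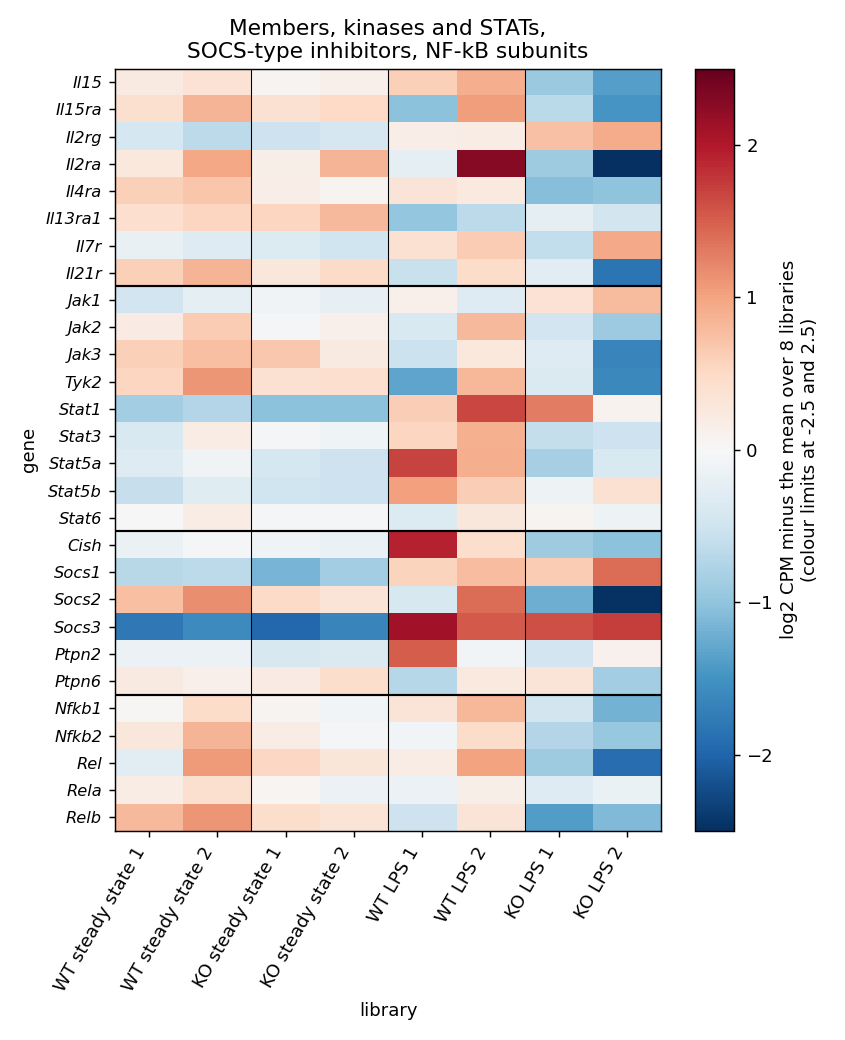
Log2 CPM minus the mean over the 8 libraries for the 8 genes, Janus kinases and STATs, SOCS-type inhibitors and NF-kB subunits with a mean above 10 CPM, 28 genes in all. Columns are libraries and colours are limited to ± 2.5. Socs3 is high in all 4 LPS libraries, whereas Stat5a is high in the 2 WT libraries with LPS.

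Genes most like Il15 across the 8 libraries, by Pearson's r of log2 CPM among 8616 genes, were Nsmaf (0.979), Trak1 (0.979), Klhl8 (0.975), Il12rb2 (0.974) and Vopp1 (0.973). Those most like Il15ra were Slc27a3 (0.993), Stk4 (0.991), Zfp217 (0.988), Poglut1 (0.988) and Prr5l (0.987). None of the other 7 genes was among the nearest 5 of either. Between the 8 genes, the highest of 28 correlations were Il15ra with Il21r (0.92), Il2ra with Il21r (0.89), Il15ra with Il2ra (0.89) and Il15 with Il2ra (0.89). The lowest were Il2rg with Il4ra (-0.86) and with Il21r (-0.84). The points are 8 libraries in 4 groups that differ in treatment and genotype, so these values describe the libraries.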

How the data were processed

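RNA-seq was read from 8 libraries of mouse dendritic cells, grouped by sample title. The values deposited by the authors are raw read counts, 1 column a library. The tools edgeR 3.6.8, Subread 1.4.3 with featureCounts, and TopHat2 2.0.8, and the build mm10, appear in the submitters' processing notes with no role for each. RNA was prepared with a TruSeq v2 kit, per the labels' protocols, which marks no strand, so overlapping genes on opposite strands cannot be separated. The annotation and the counting of reads that match several genes are stated in none of the sources used here.

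The counts were fitted with edgeR 4.0.16 (limma 3.58.1, R 4.3.3). The filterByExpr defaults (minimum count 10, minimum total 15) left 12442 of 23420 features, and TMM factors scaled the libraries. The quasi-likelihood F test, two-sided, used all 8 libraries with 1 coefficient per group (4 residual and 3.40 prior degrees of freedom, biological coefficient of variation 0.340). The SE is the size of the log2 change over the square root of F. CPM uses the scaled library sizes. Exon lengths, the union of all annotated exons of a gene, and gene coordinates are from GENCODE M21, promoters from RefSeq. The procedure was run on simulated counts with the same dispersion for every gene and changes in KO with LPS alone. Those counts lack the wider spread of the LPS groups here, so that run does not show how well calls hold in these data.

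The 8 genes and all lists were chosen with earlier results of these data known. Named beside them were list members that were called or had the largest mean, and the 5 genes most correlated with Il15 and Il15ra (mean log2 CPM of at least 3). Other genes are named where a small list is spelled out or after their values were seen. The latter are Cish, Irf1, Prss34, Cpa3, Emr1, Cd68, Fcgr1, Fscn1 and Itgax. Alternatives were RLE and upper-quartile factors, a stricter filter (CPM of 1 in 2 libraries) or none, robust dispersion, DESeq2 1.42.0, a block by replicate number, fits of only the groups compared, and leaving out each library. No batch is given in the labels. Libraries of a group differed beyond counting noise, with a chi-square of 18.8 to 186 per gene. Intervals of counting error alone are therefore not given.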

Additional observations from a re-analysis of the deposited data

Results flagged for a closer look

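Il15 is flagged because its LPS libraries lay above the steady-state libraries in WT and below them in KO. The log2 response in KO minus that in WT was -1.70 ± 0.35 (edgeR unadjusted p = 0.00155, adjusted p = 0.506). DESeq2 gave -1.69 (adjusted p = 0.00962). Over the left-out libraries the value ranged from -1.95 to -1.53. The same pattern was found in 211 of 12442 genes (1.70%), and opposite separation in either direction in 381 genes (3.06%).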

How the results depend on the processing

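Of the refits of the 8 genes in 5 comparisons, 569 kept direction and side of the threshold, 38 lost the call, 17 gained it and 16 changed sign, none of these 16 in a called value. A call could be lost only where the main fit made one, and most of the 569 were uncalled values. For KO against WT with LPS, Il15 lost its call in 8 of 17 refits. For LPS in KO, the call was lost in 6 of 16 refits for Il15, 7 of 16 for Il4ra, 7 of 16 for Il13ra1 and 3 of 16 for Il2rg. For LPS in WT, Il13ra1 lost it in 7 of 16. Counts of called genes stayed within 1.5 times under RLE and upper-quartile factors, a stricter filter and robust dispersion. The counts for KO against WT at steady state, KO against WT with LPS, LPS in WT, LPS in KO and the difference between responses were 0, 96, 807, 1463 and 0. With no filter they were 9, 538, 1497, 2223 and 3, and with DESeq2 27, 1062, 1995, 2846 and 113. With only the groups compared the 4 pairwise counts were 1, 0, 229 and 2316. Leaving out 1 library gave 0 to 1, 1 to 826, 70 to 3629, 143 to 3345 and 0 to 0. A left-out library leaves its group with 1, assumed to vary like the others, and fewer residual degrees of freedom.

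With the replicate number as a block, counts were 8 for KO against WT with LPS, 465 for LPS in WT and 776 for LPS in KO, and 5 calls of the 8 genes were lost: Il15 in KO against WT with LPS (adjusted p = 0.0930), Il13ra1 in WT (0.0538), and Il15 (0.0580), Il4ra (0.0681) and Il13ra1 (0.0706) in KO. The block turned the Il7r difference between responses from 0.04 to -0.0394. With 2 pairs per comparison the numbers cannot be shown to pair libraries. Same-numbered libraries correlated in their deviations at 0.17 at steady state, 0.26 in WT, 0.11 in KO and -0.60 between WT and KO with LPS. Crossing the KO LPS numbers, chosen after seeing the data, gave 273 calls for KO against WT with LPS.

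The other changes of sign came when 1 library was left out. Over the left-out libraries, KO against WT at steady state ran from -0.52 to 0.27 for Il2ra, -0.41 to 0.0212 for Il15ra and -0.0372 to 0.18 for Il2rg. KO against WT with LPS ran from -2.06 to 0.0189 for Il15ra and -1.14 to 0.44 for Il7r. LPS in WT ran from -1.67 to 0.41 for Il15ra and -0.89 to 1.63 for Il2ra, and LPS in KO from -0.21 to 1.38 for Il7r. The difference between responses ran from -0.98 to 0.61 for Il7r, -1.86 to 0.22 for Il15ra and -1.54 to 0.0479 for Il21r.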
